A study of Mus musculus with 10 samples.

Results

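The Nkx genes encode homeodomain transcription factors that set regional identity in the embryo. H3K27me3, the trimethyl mark placed on histone H3 by Polycomb repressive complex 2, was mapped at 9 of them in 5 mouse lymphoma lines. The 9 genes (Nkx2-1, Nkx2-2, Nkx2-3, Nkx2-5, Nkx2-6, Nkx2-9, Nkx3-2, Nkx6-1 and Nkx6-2) were taken by symbol from the GENCODE annotation of mm9, which holds 37310 genes, and all 9 were found. For each gene, the bases lying in a peak were counted over a window from 5 kb upstream of the transcription start site (TSS) to the end of the gene. The windows ran from 6.896 kb at Nkx2-9 to 21.698 kb at Nkx2-2 and measured 92.842 kb in all.

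The parental line was a B-cell lymphoma culture from a C57BL/6J mouse with the Eμ-Myc and Cdkn2a-/- alleles, in which an immunoglobulin heavy chain enhancer drives Myc in cells of the B lineage. The resistant lines R100, R500, R1000 and R4000 were sub-clones of that culture, taken during escalation of mafosfamide (an alkylating agent, the active form of cyclophosphamide in culture) at 100, 500, 1000 and 4000 nM, and harvested at days 10, 18, 23 and 37 by the study's account, whereas the series' design text puts the whole escalation at 34 days. All 5 lines therefore shared both alleles, and all were grown without the drug for chromatin immunoprecipitation. Dose, time in culture and sub-clone cannot be told apart. The data were 1 list of peak positions per line, with no height, score or read count. There was no spread between replicates, so no difference between lines was tested, and the sequencing depth behind each list is unknown. A base outside the peaks is a base with no called peak and is not shown to lack the mark. Where 5 values follow one another they run from the parental line through R100, R500 and R1000 to R4000.

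Polycomb repressive complex 2 keeps the genes of developmental regulators silent in cells of other lineages, and CG-rich promoters of homeobox genes are among its best known targets. Nkx2-3, Nkx2-5 and Nkx3-2 act in mesoderm, among other places in the early spleen and gut wall, the heart and the axial skeleton. Nkx2-2, Nkx2-9, Nkx6-1 and Nkx6-2 answer to Hedgehog signals in the ventral neural tube, and Nkx2-2 and Nkx6-1 also act in the endocrine pancreas, whereas Nkx2-1 is the factor of thyroid, lung and ventral forebrain. Most of these genes have no established role in B cells, apart from NKX2-3 and NKX2-5, which are known from lymphoid malignancies.

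Stretches of DNA from the windows are shown first, read from the mm9 genome (NCBIM37) on the strand of each gene. Every CG is in capitals because CG dinucleotides are frequent in the promoters that Polycomb occupies. The first lies 2914 to 2615 bases upstream of the Nkx2-3 TSS, at chr19:43683901-43684200, and belongs to the widest stretch outside UTRs that every list covered. It holds 8 CG, and it is shown because no other gene of the 9 had a base covered in every line.
Nkx2-3, plus strand: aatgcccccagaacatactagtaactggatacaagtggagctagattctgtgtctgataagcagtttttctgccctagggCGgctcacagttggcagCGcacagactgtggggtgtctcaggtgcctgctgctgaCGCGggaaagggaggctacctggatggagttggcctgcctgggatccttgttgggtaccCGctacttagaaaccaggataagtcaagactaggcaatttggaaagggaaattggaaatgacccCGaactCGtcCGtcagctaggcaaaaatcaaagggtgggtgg
The next stretches were covered in R100 and R500. They were chosen after the values had been seen. Those of Nkx2-5 (3365 to 3066 bases upstream of the TSS, chr17:26981576-26981875, 20 CG) and Nkx6-2 (2229 to 1930 bases upstream, chr7:146770626-146770925, 17 CG) lie upstream of the gene. That of Nkx3-2 lies in an intron (chr5:42153826-42154125, 11 CG), and that of Nkx2-6 just upstream of its TSS (532 to 233 bases, chr14:69789101-69789400, 4 CG). Some of this DNA was also covered in other lines. Of the 300 printed bases of Nkx6-2, parental peaks covered 200 and R4000 peaks 25. Of those of Nkx2-5, parental peaks covered 25 and R1000 peaks 50. The printed bases of Nkx3-2 and Nkx2-6 were covered in R100 and R500 only.
Nkx2-5, minus strand: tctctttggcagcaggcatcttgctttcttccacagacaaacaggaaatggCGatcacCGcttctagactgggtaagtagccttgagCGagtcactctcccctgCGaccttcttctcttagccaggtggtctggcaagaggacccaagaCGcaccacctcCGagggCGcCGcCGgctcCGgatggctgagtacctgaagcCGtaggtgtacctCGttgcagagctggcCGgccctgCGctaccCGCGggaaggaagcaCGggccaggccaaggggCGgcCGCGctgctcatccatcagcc
Nkx6-2, minus strand: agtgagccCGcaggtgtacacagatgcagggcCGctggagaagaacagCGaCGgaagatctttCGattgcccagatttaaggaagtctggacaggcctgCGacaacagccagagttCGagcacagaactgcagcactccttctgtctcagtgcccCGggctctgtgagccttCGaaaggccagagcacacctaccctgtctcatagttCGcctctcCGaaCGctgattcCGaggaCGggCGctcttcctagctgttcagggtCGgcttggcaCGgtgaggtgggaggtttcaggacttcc
Nkx3-2, minus strand: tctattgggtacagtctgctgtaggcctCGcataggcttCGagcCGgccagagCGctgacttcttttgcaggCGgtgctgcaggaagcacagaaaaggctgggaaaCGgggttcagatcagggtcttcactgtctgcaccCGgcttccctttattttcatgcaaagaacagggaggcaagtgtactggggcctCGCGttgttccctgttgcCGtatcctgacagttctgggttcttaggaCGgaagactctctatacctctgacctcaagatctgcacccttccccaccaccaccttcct
Nkx2-6, plus strand: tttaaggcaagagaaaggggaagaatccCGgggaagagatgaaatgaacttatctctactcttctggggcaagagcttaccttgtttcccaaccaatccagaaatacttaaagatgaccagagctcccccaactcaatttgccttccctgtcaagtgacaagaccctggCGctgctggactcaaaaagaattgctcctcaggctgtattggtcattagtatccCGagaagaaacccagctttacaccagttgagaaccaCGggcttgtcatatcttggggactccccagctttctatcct
The stretch of Nkx2-1 lies 755 to 456 bases upstream of the TSS, at chr12:57638351-57638650, with 13 CG. It was covered whole in R100 and R500 and is the only peak position that these lines shared at this gene.
Nkx2-1, minus strand: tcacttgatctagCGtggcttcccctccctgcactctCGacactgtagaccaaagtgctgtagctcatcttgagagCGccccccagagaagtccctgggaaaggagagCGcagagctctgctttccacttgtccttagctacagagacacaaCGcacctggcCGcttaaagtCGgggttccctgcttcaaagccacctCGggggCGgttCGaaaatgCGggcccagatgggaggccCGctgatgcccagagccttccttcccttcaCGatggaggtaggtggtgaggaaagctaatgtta
For comparison, the 300 bases before the TSS of Nkx2-9, at chr12:57714272-57714571, held 14 CG and no peak in any line. This was not particular to Nkx2-9. The 300 bases before the TSS of Nkx2-2 (21 CG) and Nkx6-1 (22 CG), not printed, held no peak in any line either. Both of those genes had peaks elsewhere in R100 and R500.
Nkx2-9, minus strand: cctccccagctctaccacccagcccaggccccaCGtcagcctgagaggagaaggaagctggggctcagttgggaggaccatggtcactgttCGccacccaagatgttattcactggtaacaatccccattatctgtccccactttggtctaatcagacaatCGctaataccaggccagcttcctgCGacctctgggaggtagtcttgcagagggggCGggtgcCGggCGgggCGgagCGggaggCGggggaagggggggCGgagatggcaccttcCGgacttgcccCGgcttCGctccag
Of all 37310 genes, 90.9% had at least 1 CG in the 300 bases before the TSS (CG reads the same on both strands), with a median of 1.67 per 100 bases.

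H3K27me3 peaks covered more bases of the Nkx genes in R100 and R500 than in the parental line, and the values of R1000 and R4000 lay closer to the parental ones. In the parental line 5 of the 9 genes had at least 1 bp covered, against 9.72% of all annotated genes. In R100 and in R500 this number was 8 of 9, against 25.0% and 20.2% of all genes. In R1000 and in R4000 it was 6 of 9, against 12.0% and 10.4%. Peaks were found in all 5 lines at 5 of the 9 genes, against 5.24% of all genes. Among protein-coding genes alone the shares were 12.9, 34.2, 27.2, 16.1 and 14.0%.

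**Figure D1:**
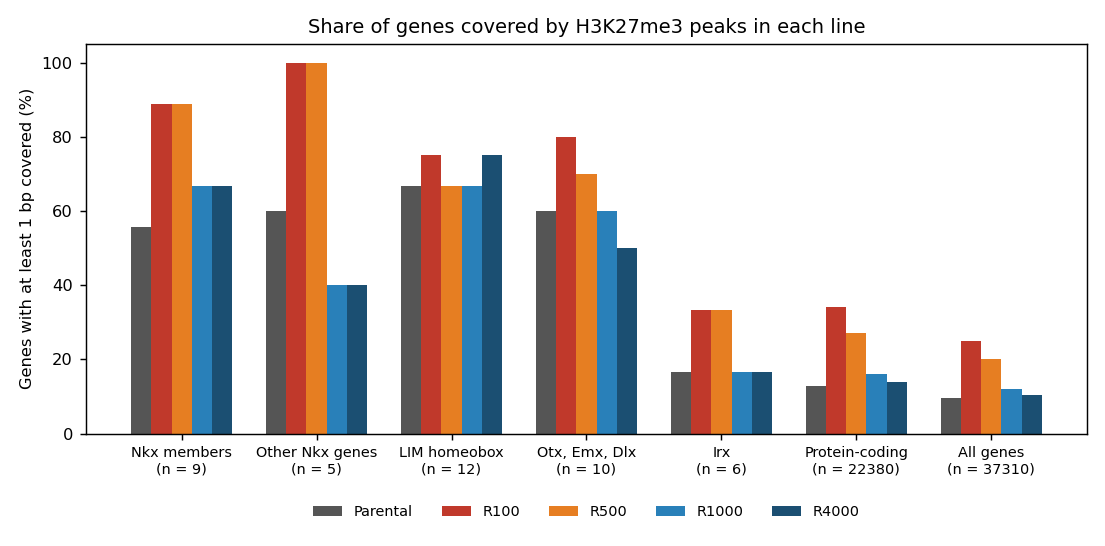
Percentage of genes with at least 1 bp covered by an H3K27me3 peak (vertical axis, from 0) in the 5 lines (bars), for the 9 Nkx genes (first group), the 5 other Nkx genes, other homeobox families, protein-coding genes and all genes. The 9 Nkx genes stood at 55.6% in the parental line and at 88.9% in R100 and R500, where all genes stood at 25.0% and 20.2%.

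Summed over the 9 windows, the parental line had 6067 covered bases, R100 had 19064, R500 had 20114, R1000 had 7842 and R4000 had 4767. These are 6.53, 20.5, 21.7, 8.45 and 5.13% of the windows. Divided by the parental sum, the sums of R100, R500, R1000 and R4000 were 3.14, 3.32, 1.29 and 0.786. These ratios lean on Nkx2-3, which held 4067 of the 6067 parental bases and had 1.48, 1.54, 1.22 and 0.840 times its parental value. The other genes with parental peaks had 3.45 to 7.80 times their parental value in R100 and 3.91 to 8.74 times in R500. In R1000 they had 0.8 to 1.63 times, and in R4000 0.25 to 1.2 times. The whole peak lists were also longest in R100 and R500, with 3.09, 2.78, 0.988 and 0.658 times the parental length from R100 to R4000. The part of the list length in the Nkx values was not tested. When only the 6820 widest peaks of each line were kept, as many as the shortest list holds, the sums were 5917, 15767, 18214, 7542 and 4767 bp. These lists were equal in number but not in length, at 1.43, 3.40, 3.25, 1.47 and 1.07 Mb.

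A gene was called higher where a resistant line had at least 2 times the parental bases and at least 150 bp more, and lower by the mirror of that rule. By this rule 7 of 9 Nkx genes were higher in R100, against 13.7% of all genes, and 7 of 9 in R500, against 10.4%. None was higher in R1000 or R4000, where 2.72% and 1.91% of all genes were. No Nkx gene was lower in R100, R500 or R1000 (0.394, 0.386 and 1.68% of all genes), and 2, Nkx3-2 and Nkx6-2, were lower in R4000 (2.81%). Only genes with parental peaks can be lower. Among the 5 Nkx genes with parental peaks, 4 were higher in R100 and in R500 and 2 were lower in R4000. Over the 3628 genes with parental peaks, 57.5% were higher and 4.05% lower in R100, 53.3% and 3.97% in R500, 14.3% and 17.2% in R1000, and 7.66% and 28.9% in R4000. Whether the Nkx genes differ from these shares was not tested. At 4 of the 9 Nkx genes both R100 and R500 exceeded the parental line by at least 150 bp while R4000 fell short of it by as much, against 2.38% of all genes and 24.4% of those covered in the parental line.

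The median over the 9 genes was 2.79, 21.2, 20.2, 2.23 and 1.19% of the window. The median over all genes was 0 in every line, and over genes with any peak it lay between 0.641 and 0.958% of the window. These percentages also depend on the length of the windows. In bases the Nkx medians were 250, 1897, 1700, 200 and 100 bp, against 200, 200, 200, 150 and 150 bp over genes with any peak. In 8 of the 9 genes the values in R100 and R500 were both above those in all 3 other lines, which held for 12.5% of all genes. Nkx2-9, with no peak in any line, was the exception. R500 had more bases than R100 in 4 genes, R100 had more in 3, and the other 2 were equal, so neither of these lines stood above the other throughout.

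**Figure D2:**
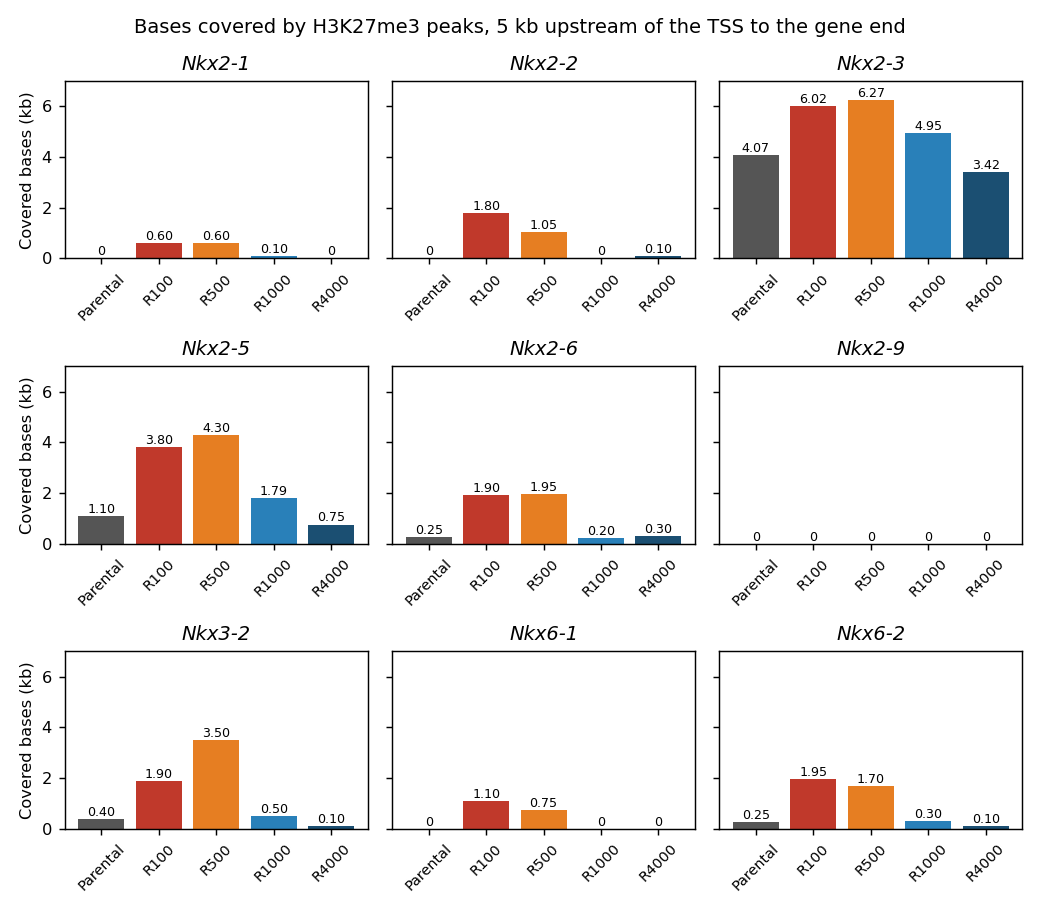
Bases covered by H3K27me3 peaks (vertical axis, kb, from 0, the same scale in each panel) for each of the 9 Nkx genes in the 5 lines (bars, 1 list per line, no error bar). R100 and R500 are the tallest bars in 8 panels, from 0.60 kb in both lines at Nkx2-1 to 6.02 and 6.27 kb at Nkx2-3, and the panel of Nkx2-9 is empty.

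Ordered by the percentage of window covered, averaged over the 5 lines, Nkx2-3 came first (57.7%), followed by Nkx2-5 (29.7%) and Nkx3-2 (15.3%), all known from mesodermal organs. Nkx2-6 (10.3%) and Nkx6-2 (10.2%) followed, then Nkx6-1 (3.06%), Nkx2-2 (2.72%) and Nkx2-1 (2.61%), and Nkx2-9 was at 0. Nkx2-6 and Nkx6-2 changed places between lines, with Nkx2-6 below Nkx6-2 in the parental line, R100 and R1000 and above it in R500 and R4000. Nkx6-1, Nkx2-2 and Nkx2-1 lay close together and, without replicates, cannot be ranked. Nkx2-3 was first in each line.

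Nkx2-3 directs the patterning of spleen and gut-associated lymphoid tissue and lies on the plus strand of chromosome 19, at 43686815 to 43690381. The parental line had 4067 bp of its window in peaks, R100 had 6017 bp, R500 had 6267 bp, R1000 had 4950 bp and R4000 had 3417 bp. These are 47.5, 70.2, 73.2, 57.8 and 39.9% of the window. Nkx2-3 was thus marked widely in all 5 lines, and in no resistant line was its change from the parental line large enough for a call (1.48, 1.54, 1.22 and 0.840 times). What differed more was how the bases were joined. The window held 14 separate peaks in the parental list, 4 and 6 in the R100 and R500 lists, and 10 and 13 in the R1000 and R4000 lists. The widest of them measured 900, 2550, 2200, 1200 and 800 bp. R100 and R500 thus had fewer and wider peaks. When peaks within 1000 bp of each other were joined, the parental line had 1900 bp more than R100, so the order of these lines at Nkx2-3 depended on how gaps between peaks were treated.

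A total of 2000 bp of the Nkx2-3 window was covered in every line, in parts of 2 regions. One ran 1450 bp from 3164 to 1715 bases upstream of the TSS, and it contains the sequence shown above. It was covered over 800, 1250, 1300, 1200 and 850 bp. The other ran 4781 bp from 1214 bases upstream of the TSS to the gene end, across the TSS and all exons. It was covered over 2631, 4631, 4381, 2950 and 2331 bp. In R100 and R500 all 1349 coding bases of the gene were in peaks, whereas 700 were in the parental line, 900 in R1000 and 834 in R4000. Of the parental bases, R100 shared 79.1%, R500 86.5%, R1000 86.1% and R4000 61.9%.

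Peaks carry no strand, and the noncoding transcript Gm20467 lies on the opposite strand of Nkx2-3, so 3165 of the parental bases, 5615 of those in R100 and 5415 of those in R500 belong to both windows. The neighbours Got1, 87.72 kb away, and Slc25a28, 47.931 kb away, were bare by comparison. Got1 had 150 bp covered in R1000 and none in the other lines, and Slc25a28 had 50 bp in R4000 and none in the others. In the 20 kb on both sides of the Nkx2-3 window, peaks covered 1633, 4683, 4233, 1300 and 483 bp, again with R100 and R500 the highest.

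Nkx2-5, the cardiac homeobox factor that is also active in the early spleen, lies on the minus strand of chromosome 17 at 26975609 to 26978510. The parental line had 1100 bp covered, R100 had 3800 bp, R500 had 4300 bp, R1000 had 1792 bp and R4000 had 750 bp, or 13.9, 48.1, 54.4, 22.7 and 9.49% of the window. R100 had 3.45 and R500 had 3.91 times the parental value, R1000 had 1.63 times and R4000 0.682 times. Outside R4000 most of the marked DNA lay upstream of the gene, with 790 of the 1100 parental bases, 2500 in R100, 2590 in R500 and 1490 in R1000. These are 71.8, 65.8, 60.2 and 83.1% of the covered bases. Upstream DNA also made up 63.3% of the window, so R100 and R500 lay near that share. In R4000 only 200 of the 750 bases were upstream. A region of 1350 bp between 3840 and 2491 bases upstream, which holds the printed sequence, had 150, 1300, 1050, 250 and 200 bp covered. A peak of 300 bp over the TSS itself was in the parental line, where R100, R500 and R1000 had 100, 50 and 100 bp and R4000 had none. This was the only covered region of Nkx2-5 in which the parental line had more than both R100 and R500. Over the gene body alone R1000 had 8 bp fewer than the parental line and R4000 had 240 bp more, both opposite in sign to the whole window. The neighbours Bnip1 and Kifc5b had at most 100 bp covered in any line. Peaks nevertheless reached beyond the window. In the 20 kb on both sides of it, a longer stretch, they covered 2750, 5600, 6200, 2008 and 1850 bp. In every line this was more than in the window itself.

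Nkx3-2, a factor of cartilage and of the axial skeleton, lies on the minus strand of chromosome 5 at 42152404 to 42155735. The parental line had 400 bp covered, R100 had 1897 bp, R500 had 3497 bp, R1000 had 500 bp and R4000 had 100 bp. It showed the widest gap in covered bases between R100 and R500 of the 9 genes, with 4.74 and 8.74 times the parental value. R1000 had 1.25 times and R4000 0.250 times. Over the 5 kb upstream R100 had 600 bp and R500 had 1500 bp. In the 3′ part of the gene, a stretch of 1947 bp through the last exon had 150, 1147, 1847, 200 and 0 bp covered, and R500 had a single peak of 2050 bp there that ran past the gene end. The single R4000 peak of 100 bp lay between 1965 and 1566 bases upstream, within a region that had 150 bp covered in the parental line. Rab28 (53.01 kb away) had 100 bp covered in R100 and none in the other lines, and Bod1l (23.046 kb away) had no peak in any line. In the 20 kb on both sides of the Nkx3-2 window, peaks covered 50, 1353, 1953, 100 and 100 bp.

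Nkx2-6, a pharyngeal and cardiac inflow factor, lies on the plus strand of chromosome 14 at 69789633 to 69793596. The parental line had 250 bp covered, R100 had 1900 bp, R500 had 1950 bp, R1000 had 200 bp and R4000 had 300 bp. R100 and R500 were alike in amount, at 7.60 and 7.80 times the parental value, and R1000 and R4000 stayed within 50 bp of it. Position told the lines apart further. The region from 832 bases upstream to 167 bases downstream of the TSS had 100, 650, 800, 0 and 300 bp covered, so that all the R4000 bases of the gene were at its TSS and none of the R1000 bases were. A second region over the 3′ part, 1050 bp long, had 0, 800, 700, 100 and 0 bp. The antisense transcript 1700092C10Rik overlaps the whole window and shares all of these bases. Rps2-ps5, 12.057 kb away, had no peak in any line. The 20 kb on both sides of the Nkx2-6 window had 150, 750, 650, 200 and 50 bp covered.

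**Figure D3:**
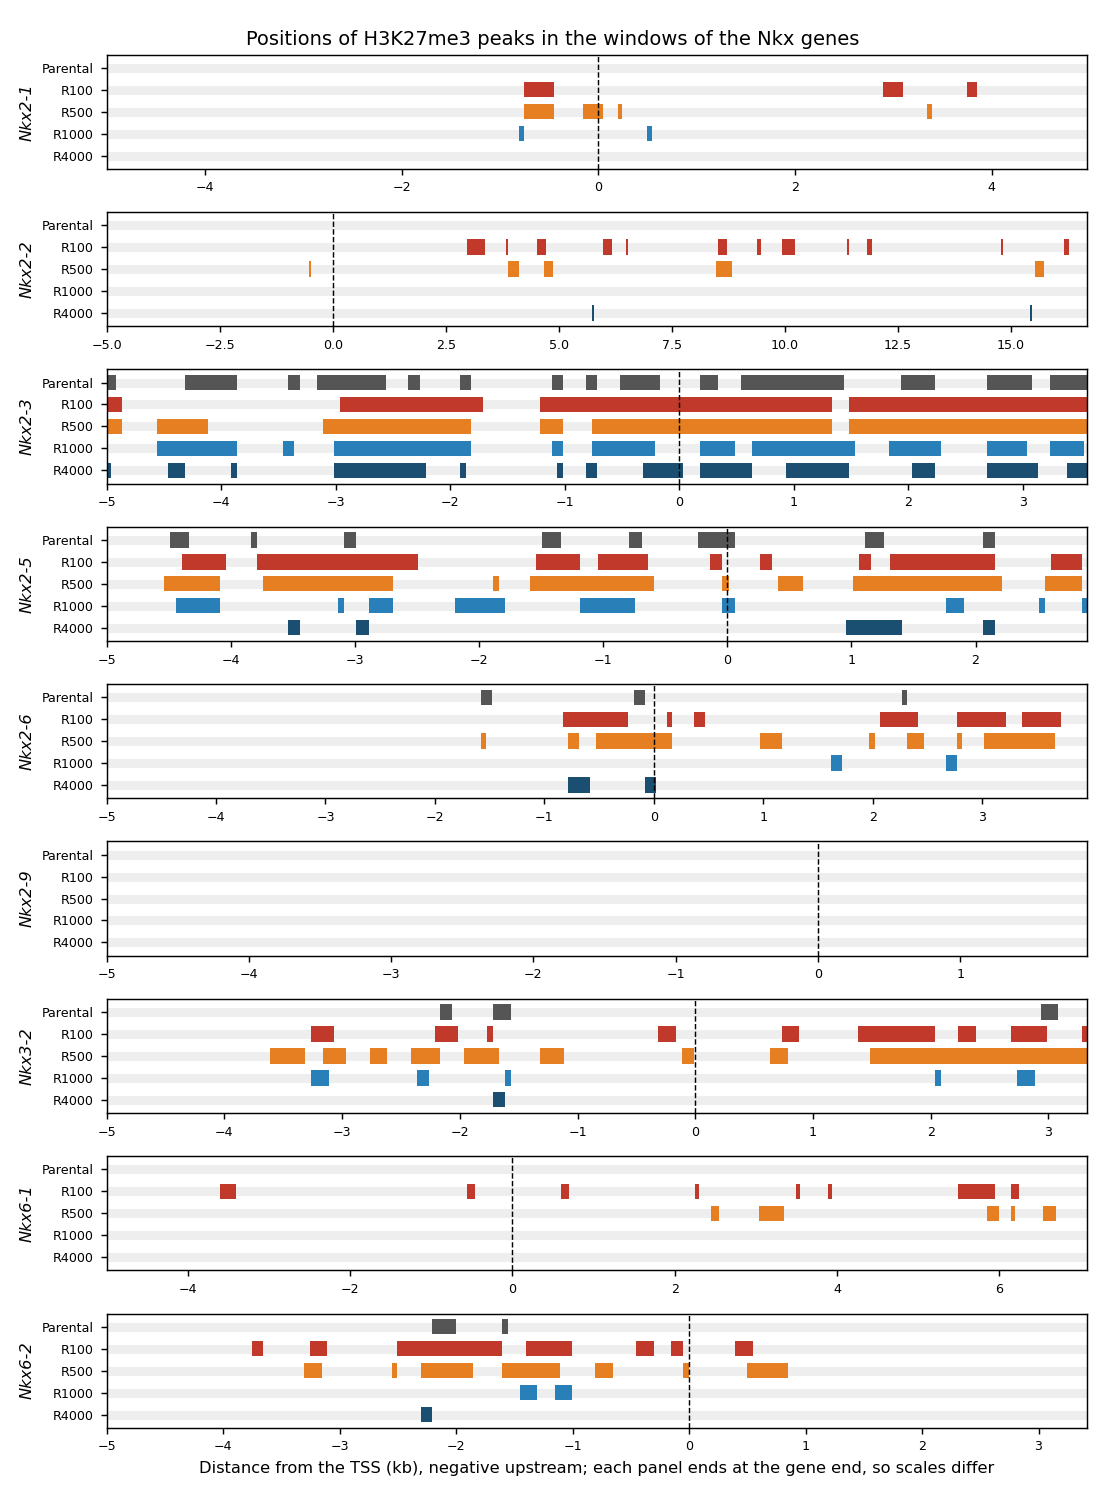
Positions of H3K27me3 peaks (coloured blocks) in the 5 lines (rows) along the window of each Nkx gene, as distance from the TSS in kb, with the TSS as a dashed line and the gene running to the right. Nkx2-3 has blocks along the window in all 5 rows, the R100 and R500 rows hold the longest blocks at Nkx2-5 and Nkx3-2, and the rows of Nkx2-9 are empty.

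Among the 4 genes of the ventral neural tube, the covered part of the window ranged from 23.2% (Nkx6-2 in R100) to none. Nkx6-2, a factor of ventral progenitors and of oligodendrocytes, lies on the minus strand of chromosome 7 at 146765276 to 146768696. The parental line had 250 bp covered, R100 had 1950 bp, R500 had 1700 bp, R1000 had 300 bp and R4000 had 100 bp. The resistant lines thus had 7.80, 6.80, 1.20 and 0.400 times the parental value. All parental, R1000 and R4000 bases were upstream of the gene, and so were 1800 of the R100 and 1350 of the R500 bases. The region from 2554 to 1005 bases upstream held all of the parental, R1000 and R4000 bases, yet no parental base was among those of R1000 or R4000. E030019B06Rik, 18.283 kb away, had no peak in any line, and Pwwp2b, 312.124 kb away, had 750, 1900, 1350, 600 and 450 bp. Inpp5a overlaps the end of the window by 276 bp without a covered base.

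Nkx6-1, needed for motor neuron progenitors and pancreatic beta cells, lies on the minus strand of chromosome 5 at 102087158 to 102094245. R100 had 1100 bp covered and R500 had 750 bp, and the parental, R1000 and R4000 lists had none. The nearest parental peak lay 58 bp outside the window. The nearest peak was 1087.51 kb away in R1000 and 637.258 kb away in R4000. R100 and R500 had 8 and 5 peaks there and shared only 150 bp. Its neighbours Agpat9 and Cds1 had no peak in any line.

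Nkx2-2, which specifies ventral interneurons and pancreatic endocrine cells, lies on the minus strand of chromosome 2 at 147003282 to 147019979. R100 had 1800 bp covered, R500 had 1050 bp and R4000 had 100 bp, and the parental and R1000 lists had none. The 12 peaks of R100 all lay downstream of the TSS used here, at least 2979 bases into the gene, and 4 of the 5 peaks of R500 did too. The gene has 4 annotated start sites, the last of them 7982 bases further in, so a single TSS describes it poorly. R100 and R500 shared 250 bp, the rest of their bases lying at different places. The antisense RNA Nkx2-2as shares 1700 and 850 of the R100 and R500 bases, and 6430503K07Rik shares 900 and 350, so the signal cannot be given to 1 transcript. Nkx2-4, 92.101 kb away, had 50 bp in R100 and 100 bp in R500, and Pax1 on the other side had no peak.

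Nkx2-9 and Nkx2-1 lie 74.481 kb apart on the minus strand of chromosome 12. Nkx2-1 (57632922 to 57637895) had 600 bp covered in both R100 and R500 and 100 bp in R1000, and it was bare in the parental and R4000 lists. The equal sums of R100 and R500 shared 300 bp, namely the stretch printed above. R500 alone had a peak of 200 bp over the TSS, while R100 had 300 bp in the gene, 100 of them coding. Nkx2-9, a partner of Nkx2-2 at the floor of the neural tube (57712376 to 57714271), had no peak in any line. The nearest one was 195.076, 73.726, 73.726, 73.676 and 919.93 kb away. Gm20466, which overlaps it, Pax9 on its other side and Mbip beyond Nkx2-1 had no peak either. Of this pair, Nkx2-1 alone had peaks.

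Of the bases marked in the parental line over all 9 windows, R100 shared 70.3%, R500 81.0%, R1000 62.6% and R4000 47.3%. Seen from the other side, 82.9% of the R1000 bases and 91.6% of the R4000 bases lay where R100 or R500 had a peak. The bases common to R100 and R500 made up 49.5% of all bases covered in either. Nkx2-3 weighed heavily here, with 5667 of the 12964 bases shared by R100 and R500 and all 2000 that were covered in every line. It also held 3500 of the 3800 parental bases shared with R1000 and 2517 of the 2867 shared with R4000. At Nkx2-5 22.7% of the parental bases were shared with R1000 and 22.7% with R4000, and at Nkx3-2 12.5 and 25%. At Nkx2-6 and Nkx6-2 no parental base was shared with R1000 or R4000.

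Upstream DNA made up 48.5% of the windows, coding exons 9.71%, noncoding exons 11.0% and introns 30.8%. The covered bases divided into 57.3% upstream and 13.2% coding in the parental line, 45.6 and 18.3% in R100, 47.1 and 17.5% in R500, 61.1 and 13.4% in R1000, and 46.8 and 19.6% in R4000. In these sums coding exons held a larger part of the covered bases than of the windows in all 5 lines, but Nkx2-3 weighed heavily. It held 700 of the 800 coding bases in the parental line, 900 of 1048 in R1000 and 834 of 934 in R4000. In R100 and R500 it held 1349 of 3485 and 1349 of 3517. At Nkx2-5 coding exons made up 12.1% of the window and 9.09% of the parental covered bases. The other genes with parental peaks had no coding base covered in that line. The summed bases of R100 and R500 lay above the parental ones in each class.

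**Figure D4:**
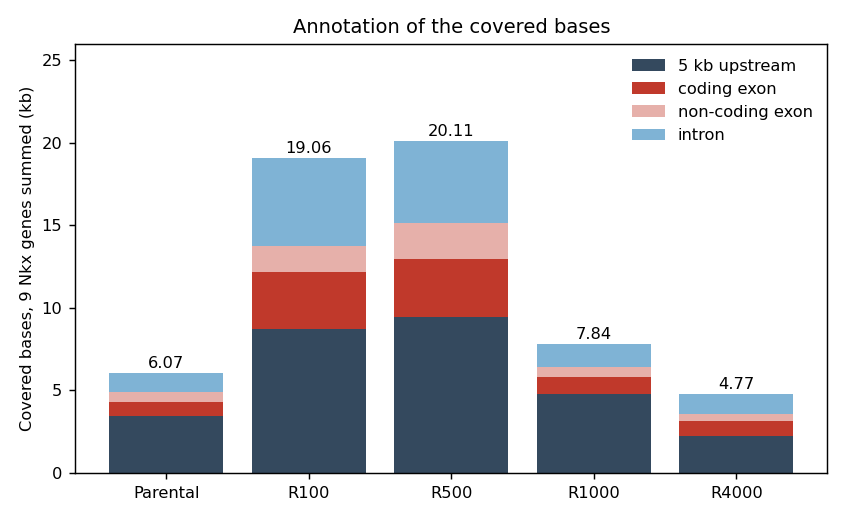
Covered bases summed over the 9 Nkx windows (vertical axis, kb, from 0) in the 5 lines, divided by annotation into the 5 kb upstream, coding exon, noncoding exon and intron. The stacks reach 6.07, 19.06, 20.11, 7.84 and 4.77 kb from the parental line to R4000, and every class is taller in R100 and R500 than in the parental line.

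The covered bases of the windows were richer in CG than the rest, with 4.47 against 3.18 CG per 100 bases (GC content 54.6 and 50.3%). The direction was the same in each of the 8 genes with a peak, from 3.95 against 3.65 at Nkx2-5 to 3.67 against 1.14 at Nkx2-6. CG density around the TSS, within 1 kb on both sides, did not order the genes as their coverage did. Nkx6-2 (8.15 per 100 bases), Nkx6-1 (7.55) and Nkx2-2 (6.65) had the densest starts, while Nkx2-3 (4.0) and Nkx2-5 (3.40) had the widest coverage. Nkx2-9, without a peak, had 3.35, close to Nkx2-5. The median was 1.60 over all genes and 3.0 over protein-coding genes. Among protein-coding genes with at least the density of Nkx2-6 (2.60), the lowest of the 9, the share with a covered base was 17.9, 49.8, 39.1, 24 and 21.5%, higher in each line than over all protein-coding genes. The part of CG density in the coverage of the Nkx genes was not tested.

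The other 5 Nkx genes of the annotation followed the same order of lines in part. Nkx1-2 had 1400, 3300, 2350, 750 and 1150 bp covered, and it was the only one of them with peaks in all lines. Nkx1-1 had 100, 1100, 800, 150 and 0 bp, and Nkx6-3 had 0, 1150, 150, 0 and 100 bp. The parental line had peaks at 3 of them, R100 and R500 at all 5, and R1000 and R4000 at 2 each, with 4 called higher in R100 and 3 in R500. Nkx2-4 had at most 100 bp, in R500. R100 had more bases than R500 in 4 of the 5.

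Other homeobox families were set beside the Nkx genes, with no test of any difference. The medians of the 9 Nkx genes were 2.79, 21.2, 20.2, 2.23 and 1.19% of the window. Among 12 LIM homeobox genes, 8, 9, 8, 8 and 9 were covered, with a median of 2.88, 13.2, 14.1, 4.34 and 1.22% of the window. Lhx1, Isl2 and Lhx9 led, with 3400, 3200 and 7900 bp in the parental list against 8550, 6550 and 10700 bp for R100. Among 10 Otx, Emx and Dlx genes, 6, 8, 7, 6 and 5 were covered (medians 2.21, 16.3, 13.7, 3.13 and 1.71%), led by Dlx2, Otx1 and Dlx1. Otx1, a forebrain factor, had 550 bp in the parental list against 7334 bp for R100. The 6 Irx genes, which pattern the neural plate and heart, had 1, 2, 2, 1 and 1 genes covered, with a median of 0% in each line and 4 genes bare in all lines. Irx5 had 1500, 3050, 3300, 2200 and 1050 bp. Calls of higher in R100 were made for 8 of 12 LIM homeobox genes, 7 of 10 Otx, Emx and Dlx genes and 2 of 6 Irx genes, beside 7 of 9 Nkx genes.

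The pathway that turns on the ventral Nkx genes was covered at other points. Among 10 genes of Hedgehog signalling, 5, 6, 6, 6 and 4 had a covered base in the 5 lines (medians 0.660, 2.64, 2.69, 1.27 and 0% of the window). Shh, the ligand that induces Nkx2-2 and Nkx6-1 in the neural tube, had no peak in any line, nor had the transcription factors Gli2 and Gli3. The ligand Dhh had 1300, 4700, 4550, 1900 and 1450 bp, and the ligand Ihh had 150, 2350, 1550, 600 and 0 bp. Gli1, the transcriptional output of the pathway, had 1300, 1750, 2000, 1450 and 700 bp, so its values lay closer together than those of Dhh and Ihh. Of the 10 genes, 3 were higher in R100 and in R500, and 2 were lower in R4000. Shh, Gli2 and Gli3 were named after their values had been seen.

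Among 10 other factors of the ventral neural tube, 7, 8, 7, 6 and 6 were covered (medians 2.35, 12.7, 11.9, 2.65 and 0.789%), with 6 called higher in R100, 4 in R500 and 4 called lower in R4000. Dbx1, an interneuron factor, had 2250, 4550, 3950, 2050 and 900 bp. Neurog3, which commits pancreatic endocrine cells, had 1263, 2700, 2013, 950 and 450 bp, and Foxa1, a pioneer factor of floor plate and gut, had 1050, 3650, 3700, 1800 and 650 bp.

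Among 12 partners of Nkx2-5 in the heart, 3, 8, 8, 5 and 3 were covered (medians 0, 1.11, 0.614, 0 and 0%). Tbx2 had 3450, 8900, 9750, 3850 and 3750 bp, Hand1 had 2150, 4400, 5220, 1450 and 1300 bp, and Gata4 had 3400, 7100, 9050, 2050 and 1350 bp. These 3 were the only partners with parental peaks. Among 17 targets and partners in thyroid, lung, pancreas, gut and skeleton, 7, 8, 8, 5 and 5 were covered, with a median of 0% in each line and 8 genes bare in all lines. Foxe1, a thyroid factor, had 900, 1700, 2650, 700 and 200 bp, Pdx1, a pancreas factor, had 1350, 3350, 2750, 900 and 400 bp, and Mafa, a beta cell factor, had 100, 550, 600, 550 and 300 bp.

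Genes whose covered bases over the 5 lines were closest to those of an Nkx gene were sought among protein-coding genes by Bray-Curtis distance, which is 0 for identical values. For Nkx2-3 they were Ccnd2 (0.043), Nr4a3 (0.047) and Hoxa13 (0.052). Ccnd2, which encodes cyclin D2, had 3866, 5600, 5666, 4316 and 3616 bp in a longer window (30270 bp). For Nkx2-5 they were Foxa1 (0.040), Hoxb8 (0.047) and Ppfia3 (0.047), and for Nkx3-2 they were Hoxd10 (0.107), Pacsin3 (0.113) and Lhx5 (0.121). The distance compares 5 values per gene from the same 5 lists, which all genes share.

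Markers of cell type were checked for the labelled B cell. Coverage is not expression, and the check can only show whether B-cell genes carried wide peaks. Of 11 B-cell markers, 1, 7, 7, 6 and 4 were covered, with a median of at most 0.319% of the window. The most covered reported here were Vpreb3 (150, 400, 500, 450 and 300 bp) and Cd79b (0, 1000, 150, 150 and 0 bp). Of 6 T-cell markers, 1, 3, 4, 0 and 1 were covered, led by Cd4 (200, 700, 150, 0 and 0 bp), Cd3g and Cd3d. Of 4 myeloid markers, Lyz2 alone had peaks, of 50 bp for the parental line and 100 bp for R100, while Itgam and Csf1r had none. Of 3 neural markers in the annotation, 1, 3, 3, 1 and 2 were covered, with 0, 2250, 1800, 500 and 400 bp at Tubb3, 0, 150, 400, 0 and 100 bp at Gfap, and at most 100 bp at Neurod1. Cdkn2a, which is deleted in the model, had no peak in any list, but bare windows were common (68.4% of all genes), so this is no check of the deletion.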

How the data were processed

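ChIP-seq for H3K27me3 was done in 5 lines. The authors sequenced reads of 50 bp, compared counts with input in windows and called peaks by Poisson statistics. The labels name Bowtie and mm9. The study gives a threshold for calling a promoter enriched and describes replicates, but the threshold of the peak lists, and whether they pool replicates, are not given in the sources used here. The deposited peak files used here give the start and end of each peak, with no count or signal. The R100 and R500 lists held each peak 2 times (50360 and 43776 entries), and distinct peaks were used (10778, 25180, 21888, 9595 and 6820 from the parental line to R4000). On all 21 chromosomes the last peak lay within the NCBIM37 sequence. RRBS samples (5) were not analysed here.

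Covered bases were counted over the union of peaks, cut at the window edges, in Python 3.11.15 with numpy 2.4.6. Simulated peaks, counted base by base, served to check the step. Figures were drawn with matplotlib 3.10.9. With 1 list per line no test was made, and bases of a peak are not independent, so no interval is given. The Nkx genes, the comparison lists and the rule of a call were chosen with earlier results of these data known. The named genes were the 14 Nkx genes, overlapping and nearest protein-coding genes, the 3 most covered genes of each list by mean percentage of window, and the 3 genes closest to each of the 3 most covered Nkx genes. The alternatives were other windows, minimum widths, lists of equal number, joined peaks, a minimum of 150 bp, a fold of 1.5 and protein-coding genes only. Some genes that this rule takes in are not reported here, and of 1 list of 12 homeobox genes the 6 Irx genes alone are, a choice made after their values had been seen.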

Additional observations from a re-analysis of the deposited data

Results flagged for a closer look

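At 4 of the Nkx genes R100 and R500 lay above the parental line by at least 150 bp while R4000 lay below it by at least 150 bp. R4000 thus stood on the opposite side of the parental line from R100 and R500. Of all genes, 2.38% met the same rule, and of the 3628 genes covered in the parental line 24.4% did, beside 4 of the 5 Nkx genes covered there. With 1 list per line the difference was not tested. Nkx2-3 had 4067 bp covered in the parental list, and R100 had 6017, R500 had 6267 and R4000 had 3417 bp. Nkx2-5 had 1100 bp in the parental list, against 3800 and 4300 bp for R100 and R500 and 750 bp for R4000. At Nkx3-2 the values were 400 bp for the parental list, 1897 bp for R100, 3497 bp for R500 and 100 bp for R4000. At Nkx6-2 they were 250 bp for the parental list, 1950 bp for R100, 1700 bp for R500 and 100 bp for R4000. R1000 lay above the parental line at all 4, by 883, 692, 100 and 50 bp in the same order of genes. Over the 5 kb upstream the R4000 differences were -436, -590, -150 and -150 bp. In other settings some fell short of the rule. At Nkx6-2 the R4000 difference was -100 bp for lists of equal number. Within 2 kb of the TSS it was -50 bp at Nkx3-2 and at Nkx6-2. Over the gene body it was 240 bp at Nkx2-5. The whole lists of R100 and R500 were also longer than the parental list, and that of R4000 was shorter.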

How the results depend on the processing

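No paired analysis was possible because each line has 1 list and the labels give no replicate numbers. Depth, threshold and pooling of the lists are unknown, and the covered bases depend on all of them. The summed bases of the 9 genes (parental line to R4000) became 3476, 8700, 9477, 4790 and 2232 over the 5 kb upstream, 2865, 8504, 9437, 3661 and 2400 within 2 kb of the TSS, and 2591, 10364, 10637, 3052 and 2535 over the gene body. They were 4817, 17314, 19264, 6900 and 3817 with peaks at least 150 bp wide, 1500, 10317, 12564, 3350 and 1350 with peaks at least 500 bp wide, 14827, 34252, 37905, 19019 and 11517 with peaks within 1000 bp joined, and 5917, 15767, 18214 and 7542, with R4000 unmoved, for lists of equal number. R100 and R500 stayed above the other lines in each setting. The share of all genes covered became 5.64, 13.3, 11.0, 6.30 and 5.14% over the upstream window, 4.81, 13.7, 11.2, 5.63 and 4.56% with peaks at least 150 bp wide, 1.27, 4.94, 4.51, 1.70 and 1.12% at 500 bp, and 5.82, 15.8, 12.7, 6.63 and 5.39% with a minimum of 150 bp per gene. For lists of equal number it was 10.5% in R100 and 9.53% in R500, and within 2 kb of the TSS it was 6.35% in the parental line. With peaks at least 500 bp wide, 1, 5, 5, 1 and 1 Nkx genes were covered, and 3 were in R4000 with peaks at least 150 bp wide or a minimum of 150 bp. The number higher in R1000 became 1 within 2 kb of the TSS, over the gene body, with either minimum width and with a fold of 1.5, and 2 with joined peaks. The number higher in R4000 became 1 with peaks at least 150 bp wide and with joined peaks. The number lower in R4000 became 0 within 2 kb of the TSS and with peaks at least 500 bp wide, 1 over the gene body and for lists of equal number, and 3 over the upstream window and with joined peaks, and the number lower in R1000 became 1 over the upstream window. The numbers higher in R100 and in R500 stayed between 5 and 8, where 4.32 to 14.4% and 3.88 to 11.1% of all genes were called. Of all genes, 0.938 to 3.14% were higher and 0.507 to 2.05% lower in R1000, and 0.544 to 2.24% higher and 0.734 to 3.28% lower in R4000. Signs turned at Nkx2-5 over the gene body, with a difference from the parental line of -8 bp in R1000 and 240 bp in R4000, and at Nkx2-3 with joined peaks, with -1900 bp in R100. Differences under 150 bp also changed sign in R1000, at Nkx2-6 from -50 bp to 150 bp over the gene body and 900 bp with joined peaks, at Nkx6-2 from 50 bp to -200 bp with joined peaks, and at Nkx3-2 from 100 bp to -100 bp within 2 kb of the TSS. In R4000 the difference at Nkx2-6 went from 50 bp to -32 bp over the gene body. The cause was not tested beyond the construction of each setting.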
